A study of Rattus norvegicus with 20 samples.

Results

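The cell division genes Mki67 (ENSRNOG00000028137), Top2a (ENSRNOG00000053047), Cdk1 (ENSRNOG00000000632) and Ccnb1 (ENSRNOG00000058539) were followed in rat heart ventricle as a set of 4 chosen by gene ID, with the gene names that came with the choice. All 4 IDs were present among the 24059 of the count table, and all 4 were among the 14293 that passed a filter on low counts. Male Sprague Dawley rats aged 9 weeks were wild type (WT) or carried a global Vegfb knockout (Vegfb KO), made with zinc-finger nucleases that placed a beta-galactosidase (lacZ) cassette in exon 1 of Vegfb, and the genotypes were littermates. Diabetic rats had received 55 mg/kg streptozotocin (STZ) intravenously, a toxin that kills the beta cells of the pancreas, and hearts were taken on day 4 of diabetes. Control rats had not been made diabetic. RNA was sequenced from the ventricles of 5 control and 5 diabetic rats of each genotype, 1 library per rat, so that p-values measure the spread between rats. Because the knockout affects the whole body and the tissue holds many cell types, a change in ventricular RNA is not tied to the loss of Vegfb in 1 type of cell, and fewer dividing cells cannot be told apart from less RNA per cell.

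Cells that divide copy their DNA, untangle and condense the copies and then separate them in mitosis. The protein of Mki67 is the Ki-67 antigen, which coats mitotic chromosomes and is widely used to mark cycling cells. Top2a encodes DNA topoisomerase II alpha, the enzyme that untangles the DNA copies. Cdk1 is the kinase that drives entry into mitosis, and Ccnb1 encodes cyclin B1, the partner that activates it. Most heart muscle cells of an adult rat have left the cell cycle, while endothelial cells, fibroblasts and immune cells of the heart can still divide.

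Genes of the late cell cycle often carry a CCAAT box together with a cell cycle homology region (CHR) close to the transcription start, and the upstream DNA of the 4 genes is shown because 3 of them fell together in the diabetic hearts. All 4 had an entry among the RefSeq promoter windows of the rat assembly GRCr8, a newer build than the mRatBN7.2 transcriptome used for the counts. The 250 bases before each annotated start were searched on both strands for CCAAT, for the CHR motif TTTGAA and for its variant TTCGAA. Sequences are given 5′ to 3′ in the direction of transcription, with matches in capitals, where ATTGG and TTCAAA are CCAAT and TTTGAA on the opposite strand. For Top2a (chr10:84473094-84473343, minus strand) and Ccnb1 (chr2:33655226-33655475, minus strand) the whole stretch of 250 bases is printed. For Cdk1 the bases upstream of every annotated transcript (chr20:19265043-19265251, plus strand) and the last 30 bases before the start (chr20:19265263-19265292) are printed, and for Mki67, where a longer annotated transcript covers the window, 30 bases around the CHR matches (chr1:199952683-199952712, minus strand).
Mki67: aaTTTGAAccgccgttttcgTTTGAATTGG
Top2a: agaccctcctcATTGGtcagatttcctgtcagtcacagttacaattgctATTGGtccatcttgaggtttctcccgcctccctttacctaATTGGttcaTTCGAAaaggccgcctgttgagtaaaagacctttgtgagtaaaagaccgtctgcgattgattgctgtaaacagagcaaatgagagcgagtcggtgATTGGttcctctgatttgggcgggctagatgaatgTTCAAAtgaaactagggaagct
Cdk1, upstream part: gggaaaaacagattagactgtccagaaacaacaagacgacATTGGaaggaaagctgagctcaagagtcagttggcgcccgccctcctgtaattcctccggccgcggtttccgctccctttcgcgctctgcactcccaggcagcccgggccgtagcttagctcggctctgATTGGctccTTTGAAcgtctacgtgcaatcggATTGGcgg
Cdk1, next to the start: tttaccgcggtgagTTTGAAactgctggca
Ccnb1: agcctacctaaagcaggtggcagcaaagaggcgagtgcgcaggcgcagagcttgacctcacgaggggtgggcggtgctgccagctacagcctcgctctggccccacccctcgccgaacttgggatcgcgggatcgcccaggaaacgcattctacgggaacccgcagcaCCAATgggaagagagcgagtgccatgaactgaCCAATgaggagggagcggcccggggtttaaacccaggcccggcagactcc

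CCAAT occurred 4 times before Mki67, 4 times before Top2a, 3 times before Cdk1 and 2 times before Ccnb1. Of all 33469 windows of 250 bases, 34% held at least 1 CCAAT, 9.42% at least 2 and 2.52% at least 3. TTTGAA occurred 2 times before Mki67, 1 time before Top2a and 2 times before Cdk1, and it was not found before Ccnb1. At least 1 TTTGAA was present in 16.2% of the windows, and 2.09% held 2 or more. The combination of at least 2 CCAAT and at least 1 TTTGAA, which Mki67, Top2a and Cdk1 shared, was found in 1.59% of the windows. TTCGAA was found 1 time before Top2a and in 1.4% of all windows. TTTAAA, a related sequence that reads the same on both strands, was searched after the sequences had been read and is not in capitals. It occurred 1 time before Ccnb1 and not before the other 3 genes, and 12.3% of the windows held it. Other variants of the CHR were not searched. In Mki67 the TTTGAA that ends 94 bases before the start shares 1 base with the CCAAT on the opposite strand. G and C made up 66% of the bases before Mki67, 45.6% before Top2a, 57.6% before Cdk1 and 64.4% before Ccnb1. A match describes the letters in these windows, and binding of any factor was not tested.

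**Figure D1:**
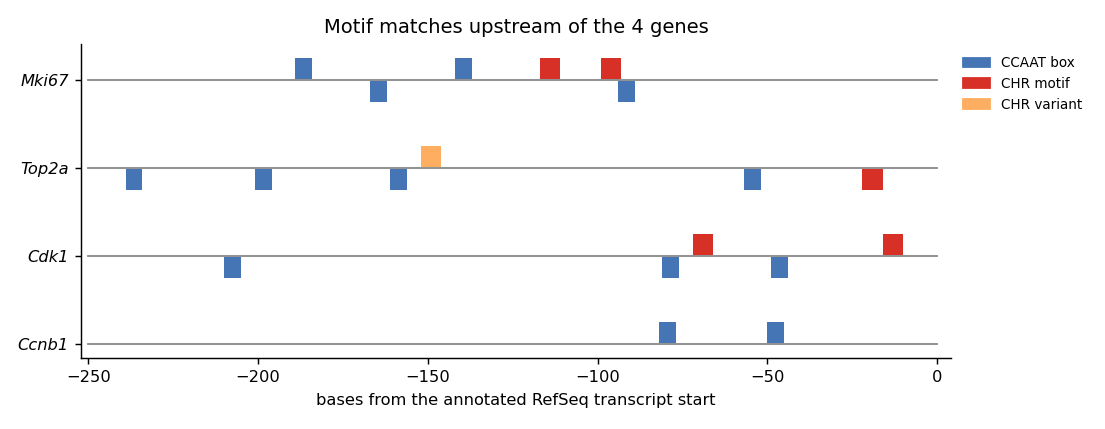
Matches to the CCAAT box (blue), the CHR motif TTTGAA (red) and its variant TTCGAA (orange) in the 250 bases before the annotated start of each gene, with distance from the start in bases on the horizontal axis. Marks above a line are matches read in the direction of transcription and marks below it are matches on the opposite strand, and TTTAAA, found 1 time before Ccnb1, is not drawn. Blue marks stand on all 4 lines, with 2 on that of Ccnb1.

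The counts behind these genes were small. Total counts per library ranged from 7220469 to 26664479, lowest in Vegfb KO diabetic replicate 1, followed by WT control replicate 2 with 7314287. Counts per library were 26 to 274 for Mki67, 8 to 114 for Top2a, 3 to 69 for Cdk1 and 3 to 54 for Ccnb1. Levels are given as CPM, the count of a gene scaled to the size of its library, after TMM scaling, a method that corrects for a few genes that take much of the count, and levels of different genes are not compared because CPM does not account for gene length. In WT diabetic replicate 2 and Vegfb KO diabetic replicate 1, 1 ID took 23.3% and 25.5% of the total count, against at most 5.28% in any other library, and their TMM factors were 0.729 and 0.694. The fold changes, the numbers of genes called, the correlations over all rats and the ratios of genes were therefore also computed without these libraries.

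Mki67 was lower in diabetic than in control hearts of both genotypes. In the 5 WT control rats its level was 7.35, 8.25, 9.09, 8.55 and 11.7 CPM, and in the 5 WT diabetic rats it was 3.55, 3.83, 5.02, 3.50 and 2.62 CPM. The WT groups did not overlap, since the highest diabetic heart, replicate 3, lay below every control heart. In Vegfb KO rats the values were 7.57, 6.37, 7.19, 5.04 and 10.2 CPM in controls and 5.20, 3.11, 3.09, 3.33 and 3.82 CPM in diabetic hearts. Here 1 diabetic heart, replicate 1, lay above 1 control heart, replicate 4. The means were 8.99 ± 1.65 CPM in control and 3.70 ± 0.865 CPM in diabetic WT hearts, and 7.28 ± 1.90 and 3.71 ± 0.881 CPM in those of Vegfb KO rats (SD, n = 5 each). The log2 fold change with diabetes was -1.28 in WT (standard error 0.19, adjusted p = 4.69e-05) and -1.03 in Vegfb KO hearts (standard error 0.19, adjusted p = 0.0014), by the quasi-likelihood test of edgeR, with p-values adjusted after Benjamini and Hochberg over all genes tested.

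Top2a separated the diabetic from the control hearts without any overlap. WT control rats had 3.06, 3.86, 3.42, 3.92 and 4.49 CPM and WT diabetic rats 1.14, 1.32, 1.95, 1.13 and 0.872 CPM. Vegfb KO control rats had 2.98, 3.29, 2.61, 2.38 and 5.04 CPM and Vegfb KO diabetic rats 1.60, 1.01, 1.20, 0.979 and 1.24 CPM. The highest of the 10 diabetic hearts was WT replicate 3 and the lowest of the 10 control hearts was Vegfb KO replicate 4, which still lay above it. The means were 3.75 ± 0.539 CPM in control and 1.28 ± 0.406 CPM in diabetic WT hearts, and 3.26 ± 1.05 and 1.21 ± 0.248 CPM in those of Vegfb KO rats (SD, n = 5 each). With diabetes Top2a fell by 1.54 on the log2 scale in WT (standard error 0.23, adjusted p = 5.52e-05) and by 1.48 in Vegfb KO hearts (standard error 0.24, adjusted p = 0.000245), by the same edgeR test.

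Cdk1, the mitotic kinase, also fell with diabetes in both genotypes. Its level was 2.01, 2.26, 1.95, 2.05 and 2.95 CPM in WT control and 0.355, 0.792, 0.871, 0.443 and 0.698 CPM in WT diabetic rats. In Vegfb KO rats it was 1.09, 1.82, 1.54, 1.19 and 1.90 CPM in controls and 1.20, 0.687, 0.461, 0.196 and 0.621 CPM in diabetic hearts. The WT groups were far apart, while in Vegfb KO rats diabetic replicate 1 lay above control replicates 1 and 4 and the other 4 diabetic hearts lay below every control. The means were 2.24 ± 0.411 CPM in control and 0.632 ± 0.224 CPM in diabetic WT hearts, and 1.51 ± 0.363 and 0.633 ± 0.369 CPM in those of Vegfb KO rats (SD, n = 5 each). The log2 fold change was -1.81 in WT (standard error 0.31, adjusted p = 0.000245) and -1.40 in Vegfb KO hearts (standard error 0.32, adjusted p = 0.00789, edgeR's quasi-likelihood test).

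Ccnb1, the cyclin partner of Cdk1, did not pass the test. WT control rats had 1.27, 0.931, 2.24, 1.91 and 1.37 CPM and WT diabetic rats 0.213, 1.45, 0.996, 1.21 and 0.392 CPM. Vegfb KO control rats had 0.975, 1.01, 0.980, 1.03 and 1.33 CPM and Vegfb KO diabetic rats 0.599, 1.51, 0.461, 0.979 and 0.888 CPM. Diabetic and control hearts overlapped in both genotypes, and in each the highest diabetic value was that of replicate 2. The means were 1.54 ± 0.525 CPM in control and 0.852 ± 0.531 CPM in diabetic WT hearts, and 1.07 ± 0.147 and 0.888 ± 0.407 CPM in those of Vegfb KO rats (SD, n = 5 each). In WT hearts the log2 fold change was -0.87, with a 95% confidence interval from -1.63 to -0.11, an unadjusted p of 0.0271 and an adjusted p of 0.125 (edgeR's quasi-likelihood test). In Vegfb KO hearts it was -0.21, with an interval from -0.999 to 0.57 (adjusted p = 0.805, same test). The Vegfb KO value was -0.52 without Vegfb KO diabetic replicate 2 and -0.021 without replicate 3 of that group, the ends of its range with 1 library left out, and it was called in none of these fits. With limma and sample quality weights in place of edgeR, Ccnb1 passed in WT hearts with a log2 fold change of -1.20 (adjusted p = 0.0197), where the adjusted p over all alternatives ranged up to 0.298.

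**Figure D2:**
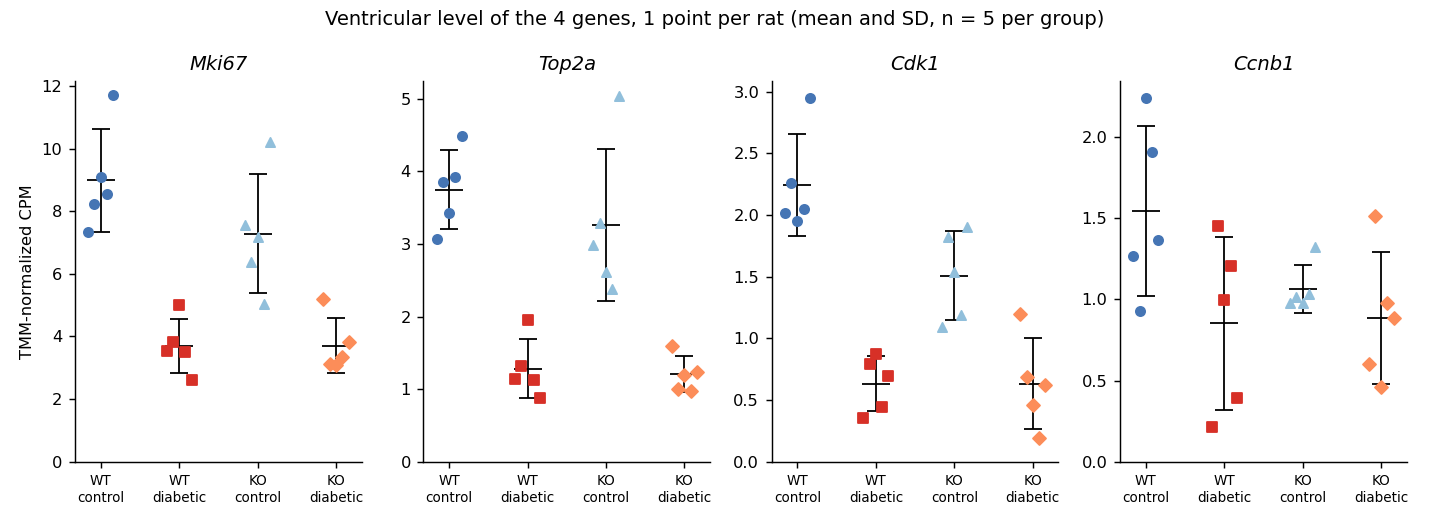
TMM-normalized CPM of each gene in the 4 groups, 1 point per rat, with the mean and SD of 5 rats in black and a separate vertical axis from 0 for each gene. The red and orange diabetic points of Mki67, Top2a and Cdk1 lie low against the blue control points, with means of 3.70 against 8.99 CPM for Mki67 in WT, and those of Ccnb1 overlap with the controls.

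Set against the whole table, 3 of the 4 genes (Mki67, Top2a and Cdk1) were called lower in diabetic WT hearts, where 7.07% of the 14293 tested genes were called lower. A gene was called when its adjusted p was under 0.05 and its log2 fold change beyond 0.27 in either direction. The same 3 were called lower in Vegfb KO hearts, where the share over all genes was 4.21%. These shares depend on the fit. In Vegfb KO hearts 602 genes were called lower, against 107 with scaling by total count and 352 without Vegfb KO diabetic replicate 3. In WT hearts 1010 were called lower, against 394 with scaling by total count. For the mean of both genotypes, 10 diabetic against 10 control rats, the 3 were called again beside 8.3% of all genes. Every WT diabetic rat lay below every WT control rat for these 3 genes and for 5.33% of all genes. In Vegfb KO rats this held for Top2a alone, beside 4.76% of all genes, and across all 20 rats again for Top2a alone, beside 1.67%. The median log2 fold change of the 4 genes was -1.41 in WT and -1.21 in Vegfb KO hearts, and that of all tested genes was 0.01 in each.

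In the mean of both genotypes the log2 fold change of Mki67 was -1.16 (standard error 0.13, adjusted p = 9.16e-07 by edgeR's quasi-likelihood test), which leaves 44.9% of the control level. That of Top2a was -1.51 (standard error 0.16, adjusted p = 3.5e-07, same test), leaving 35.1%, and that of Cdk1 was -1.60 (standard error 0.22, adjusted p = 1.11e-05, same test), leaving 33%. Ccnb1 was at -0.54 with a 95% confidence interval from -1.09 to 0.01 (adjusted p = 0.148, same test), and limma with quality weights called it at -0.75 (adjusted p = 0.0251). Ordered by the size of the fall among the 14293 genes, Cdk1 was at rank 31, Top2a at rank 37, Mki67 at rank 103 and Ccnb1 at rank 516. Without WT diabetic replicate 2 and Vegfb KO diabetic replicate 1, the values were -1.21 for Mki67, -1.55 for Top2a, -1.73 for Cdk1 and -0.63 for Ccnb1.

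The effect of the knockout was compared within controls and within diabetic rats. In controls all 4 genes had lower means in Vegfb KO than in WT hearts, with log2 differences of -0.31 for Mki67, -0.20 for Top2a, -0.57 for Cdk1 and -0.56 for Ccnb1, and none passed the test (adjusted p = 0.9999 for each, edgeR's quasi-likelihood test). For Cdk1 the highest Vegfb KO control heart, at 1.90 CPM, lay just below the lowest WT control heart, at 1.95 CPM, a separation found in this direction for 0.637% of all genes. Its 95% confidence interval from -1.15 to 0.01 reached 0 (unadjusted p = 0.0551). Of the 4 genes, 0 were called, where 0.028% of all genes were, and 0 had an unadjusted p under 0.05 in edgeR. DESeq2 and limma also called 0 of the 4. With 1 library left out the differences kept their sign and ranged from -0.47 to -0.19 for Mki67, from -0.41 to -0.10 for Top2a, from -0.67 to -0.44 for Cdk1 and from -0.66 to -0.40 for Ccnb1. The lower end for Mki67, Top2a and Cdk1 was reached without Vegfb KO control replicate 5.

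In diabetic rats none of the 4 genes passed the test between genotypes. The log2 difference between Vegfb KO and WT was -0.06 for Mki67, -0.15 for Top2a, -0.16 for Cdk1 and 0.10 for Ccnb1, and the 95% confidence intervals ran from -0.47 to 0.35, from -0.66 to 0.37, from -0.87 to 0.55 and from -0.71 to 0.90. Of the 4 genes, 0 were called (adjusted p of at least 0.918 in edgeR's quasi-likelihood test), beside 0.042% of all genes, and 0 had an unadjusted p under 0.05. That share rests on 6 genes, where 2 to 181 were called with 1 library left out and 68 with DESeq2. Limma called 0 of the 4, and DESeq2 called neither Mki67 nor Top2a and gave no adjusted p for the other genes. The sign of these differences was not stable, since counts thinned to the smallest total gave 0.18 for Mki67 and -0.13 for Ccnb1, and limma gave 0.032 for Mki67 and 0.013 for Top2a.

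Whether diabetes changed the genes differently in the genotypes was tested by the interaction. The fall was smaller in Vegfb KO hearts by 0.25 on the log2 scale for Mki67, with a 95% confidence interval from -0.30 to 0.80. The interaction was 0.05 for Top2a (from -0.63 to 0.74), 0.41 for Cdk1 (from -0.52 to 1.34) and 0.66 for Ccnb1 (from -0.44 to 1.75). None of the 4 passed (adjusted p = 0.9998 for each, edgeR's quasi-likelihood test), and over all tested genes 0% did, with 600 at an unadjusted p under 0.05. DESeq2 and limma also made 0 calls for the interaction, with 672 and 1565 genes at an unadjusted p under 0.05. With 1 library left out edgeR had from 430 such genes (without WT diabetic replicate 4) to 1050 (without WT diabetic replicate 3). With scaling by total count edgeR had 270 such genes. For each gene the mean level was highest in WT controls and next highest in Vegfb KO controls, which did not differ by the test above. Both diabetic groups had lower means than either control group, and no order is given between them, since their mean CPM lay within 1 SD of each other and the sign of the fitted difference was not stable. The test within each genotype separated the diabetic from the control level for Mki67, Top2a and Cdk1 and not for Ccnb1, and diabetic hearts of one genotype were not tested against controls of the other. With 1 library left out the interaction ranged from 0.13 to 0.41 for Mki67, from -0.064 to 0.27 for Top2a, from 0.23 to 0.63 for Cdk1 and from 0.35 to 0.89 for Ccnb1. Thinned counts gave 0.51, -0.14, 0.066 and 0.38 in the same order.

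**Figure D3:**
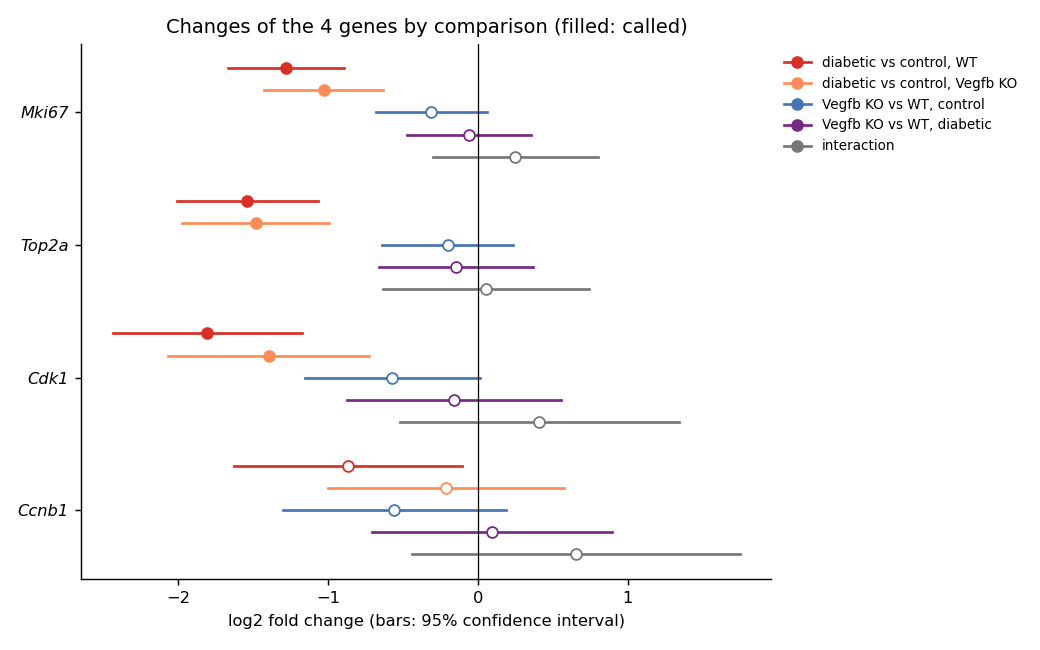
Log2 fold changes of the 4 genes with 95% confidence intervals for diabetes in WT and in Vegfb KO hearts, for the knockout in control and in diabetic rats, and for the interaction. Filled points passed the call, and these are the diabetes changes of Mki67, Top2a and Cdk1 in both genotypes, from -1.81 to -1.03.

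The spread between rats was then compared with the error of counting alone. For Mki67 in Vegfb KO controls the SD of 1.90 CPM was 3.23 times what counting gives, and for Top2a in the same group it was 2.66 times. Cdk1 in Vegfb KO diabetic hearts varied by 58.3% of its mean, where counting alone gives 35.6%. Ccnb1 in WT diabetic hearts varied by 62.3%, beside 24.8% from counting, while in Vegfb KO controls its SD was 0.654 of the counting SD. Top2a in Vegfb KO diabetic hearts also lay below counting, at 0.798 of the counting SD. In WT controls the ratio was 1.11 for Top2a and 1.095 for Cdk1. The groups not named here ran from 1.23 (Cdk1 in WT diabetic hearts) to 2.19 (Mki67 in WT controls). Counting error covers only the sampling of reads.

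Across rats of the same group, Mki67 and Top2a varied together. With the mean of each group subtracted from log2 CPM, Pearson's r between them was 0.88 over 20 rats (permutation of rats within groups, two-sided, p = 1e-05, the smallest value that 100000 permutations can give, and 6e-05 after Benjamini-Hochberg adjustment over the 6 pairs of genes). Spearman's rho was 0.76 (permutation p = 0.00067, adjusted 0.00402). Without the rats farthest from the median of Mki67, which were Vegfb KO control replicate 5 and Vegfb KO diabetic replicate 1, r was 0.83. Within the 10 diabetic rats r was 0.93 (permutation p = 0.00173, adjusted 0.0104), rho was 0.85 (permutation p = 0.00503, adjusted 0.0302) and r was 0.81 without the 2 rats farthest from the median of Mki67. Within the 10 control rats r was 0.84 (permutation p = 0.00993, adjusted 0.0596) and rho 0.66 (permutation p = 0.0646, adjusted 0.194), neither past the threshold after adjustment, and r was 0.56 without Vegfb KO control replicates 4 and 5. Vegfb KO control replicate 5, WT control replicate 5, WT diabetic replicate 3 and Vegfb KO diabetic replicate 1 had the highest level of both genes in their groups, and WT control replicate 1, Vegfb KO control replicate 4 and WT diabetic replicate 5 the lowest of both.

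The relation of Cdk1 to the other genes was weaker. With Top2a its r was 0.57 (permutation p = 0.00928, adjusted 0.0278) and rho 0.62 (permutation p = 0.0101, adjusted 0.0302) over the 20 rats, and r was 0.54 without the 2 rats farthest from the median of Top2a. Neither the control nor the diabetic rats passed alone. Within the 10 control rats r was 0.71 (permutation p = 0.0365, adjusted 0.11) and rho 0.70 (permutation p = 0.0506, adjusted 0.194), and r was 0.56 without Vegfb KO control replicates 4 and 5. Within the 10 diabetic rats r was 0.57 (permutation p = 0.0739, adjusted 0.222) and rho 0.62 (permutation p = 0.0772, adjusted 0.232), and r was 0.18 without WT diabetic replicate 3 and Vegfb KO diabetic replicate 1. The call over 20 rats ended when both libraries with a high share of 1 ID were left out (r = 0.49, adjusted permutation p = 0.149) and without Vegfb KO diabetic replicate 1 alone (r = 0.49, adjusted permutation p = 0.103). It also ended without WT control replicate 5, WT diabetic replicate 3 or Vegfb KO control replicate 4 or 5, or Vegfb KO diabetic replicate 3 or 4, with r from 0.54 to 0.58. Mki67 and Cdk1 had an r of 0.50 (permutation p = 0.0397, adjusted 0.0793) and a rho of 0.46 (permutation p = 0.0648, adjusted 0.13), neither past the threshold after adjustment. Here r was 0.31 without the 2 rats farthest from the median of Mki67 and 0.34 without 1 of them, Vegfb KO diabetic replicate 1, alone.

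No relation of Ccnb1 to the other genes passed the test. Its r over 20 rats was 0.20 with Mki67, 0.17 with Top2a and 0.14 with Cdk1, the partner of its protein (adjusted permutation p = 0.623 for each). The rho values were 0.23, 0.17 and 0.18 (adjusted permutation p = 0.508 for each). Without the 2 rats farthest from the median of the other gene, r was 0.27, 0.01 and 0.42. With 1 rat left out r ranged from 0.078 to 0.31 with Mki67 and from 0.049 to 0.25 with Top2a, lowest without WT diabetic replicate 5 in both, and from -0.10 to 0.29 with Cdk1.

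**Figure D4:**
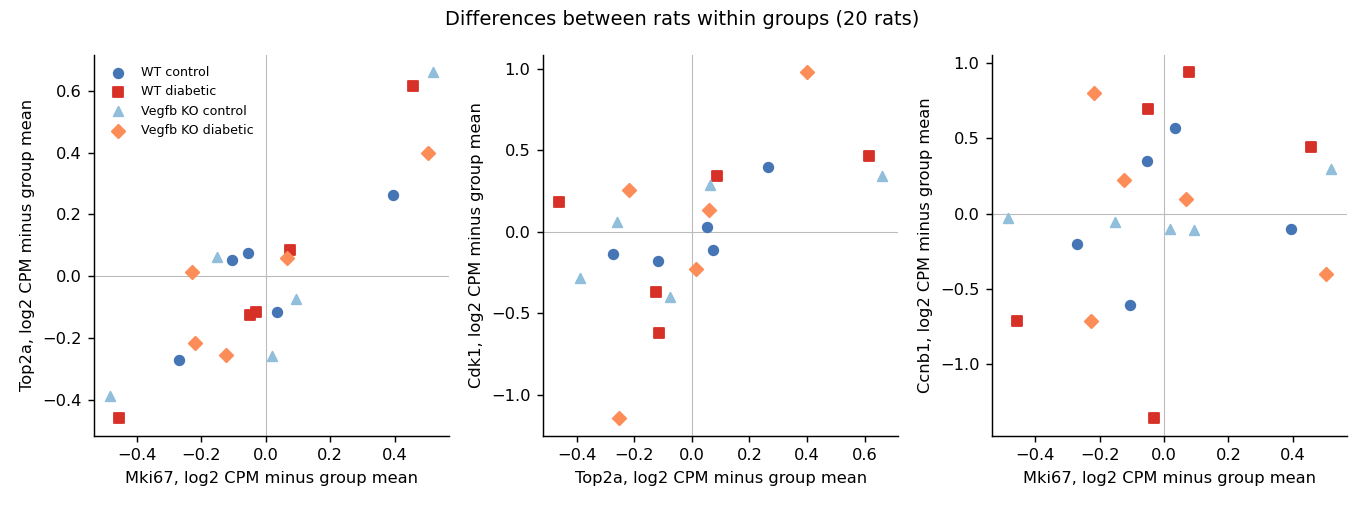
Log2 CPM of 20 rats with the mean of each group subtracted, for Mki67 and Top2a, Top2a and Cdk1, and Mki67 and Ccnb1, with color and shape giving the group. The points run along a diagonal for Mki67 and Top2a (r = 0.88), less so for Top2a and Cdk1 (r = 0.57), and scatter for Mki67 and Ccnb1 (r = 0.20).

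Likeness was also ranked against the whole table. Of the 14292 other genes tested, Top2a had the highest r with Mki67, and Mki67 had the highest r with Top2a. Cdk1 stood at rank 328 for Mki67 and at rank 176 for Top2a, and Ccnb1 at ranks 3803 and 4726. Seen from Cdk1, Top2a stood at rank 360, Mki67 at rank 743 and Ccnb1 at rank 4750. Genes are not independent replicates, and the ranks are a description.

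The genes whose differences between rats were most like the average of the 4, by r over 20 rats with group means subtracted, are given by ID because the tables used here do not pair IDs with names. The highest were ENSRNOG00000038001 (r = 0.82) and ENSRNOG00000001309 (r = 0.78), and the lowest were ENSRNOG00000049952 (r = -0.77) and ENSRNOG00000036918 (r = -0.74). ENSRNOG00000001309 had 9.30 ± 1.48 CPM in control and 6.48 ± 1.19 CPM in diabetic WT hearts, and 9.57 ± 1.30 and 6.53 ± 1.01 CPM in those of Vegfb KO rats (SD, n = 5 each). It fell with diabetes by 0.54 on the log2 scale in the mean of both genotypes (adjusted p = 0.000333, edgeR's quasi-likelihood test). ENSRNOG00000036918 was higher in diabetic hearts, with a log2 fold change of 0.72 (adjusted p = 5.62e-06, same test), while ENSRNOG00000038001 was at -0.20 (adjusted p = 0.368) and ENSRNOG00000049952 at 0.04 (adjusted p = 0.618). Of the 100 genes most like the average, 14 were called lower with diabetes, which is 14% against 8.3% of all genes, and 4 were called higher, which is 4% against 7.91% of all genes. Of the 50 most like it, 9 were called lower (18%) and 0 higher, and of the 200 most like it 28 were called lower (14%) and 9 higher (4.5%), list lengths added after the data were seen. The median log2 fold change was -0.088 for the 50 genes, -0.02 for the 100 and 0.025 for the 200, beside 0.01 for all genes. Below 0 lay 30, 51 and 92 of them in the same order, where 47.57% of all genes did.

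The balance among the 4 genes was examined by the log2 ratio of their counts in each rat, a comparison chosen after the values had been seen, with 0.5 added to each count. The 6 ratios were compared between diabetic and control rats by an exact permutation test within genotypes over 63504 arrangements, two-sided, with Benjamini-Hochberg adjustment over the 6. The ratio of Mki67 to Top2a was higher in diabetic hearts by 0.35 (0.28 in WT and 0.42 in Vegfb KO, exact permutation p = 0.000315, adjusted 0.00189). The ratios of Mki67 to Cdk1 (a difference of 0.49), of Top2a to Ccnb1 (-0.77) and of Cdk1 to Ccnb1 (-0.91) each had an adjusted exact permutation p of 0.0482. These 3 calls were fragile, since leaving out 1 library ended them in 16, 15 and 14 of 20 cases. The ratio of Mki67 to Ccnb1 differed by -0.42 (adjusted exact permutation p = 0.219) and that of Top2a to Cdk1 by 0.13 (adjusted exact permutation p = 0.525), neither beyond the spread between rats. The ratio of Top2a to Cdk1 ranged from 0.00071 to 0.22 with 1 library left out, lowest without Vegfb KO diabetic replicate 4, and was 0.26 without both libraries with a high share of 1 ID. A ratio shows unequal change and not which of its genes changed.

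Library properties were set beside the levels, 12 relations in all, with group means subtracted over 20 rats. One property was the share of the count taken by the ID that was high in WT diabetic replicate 2 and Vegfb KO diabetic replicate 1. That ID was chosen because its highest share over all libraries most exceeded its highest share in controls. It was not the most abundant ID of each library, and its share was 0.114% in Vegfb KO control replicate 1. Between Cdk1 and this share, rho was 0.72 and passed the test (permutation p = 0.0027, adjusted 0.0324). For the same relation r was 0.70 and did not pass (permutation p = 0.00565, adjusted 0.0678). Without the 2 rats farthest from the median share r was 0.60. For Top2a r was 0.54 (adjusted permutation p = 0.2), and the other 11 relations passed by neither measure, with adjusted permutation p-values of at least 0.15. Vegfb KO diabetic replicate 1, with the smallest total and the largest share, had the highest Mki67, Top2a and Cdk1 of its group, from 26, 8 and 6 counts. The part of these properties in the correlations was not tested, apart from the values without both libraries. RefSeq lists a pseudogene named after Mki67 and another named after Cdk1, and whether reads were shared with these copies was not tested. Of the 20 deposited values, those within 0.1 of a whole number were 19 for Cdk1, 7 for Ccnb1, 5 for Mki67 and 1 for Top2a, and no pseudogene named after Top2a or Ccnb1 is listed.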

How the data were processed

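Paired-end directional libraries of ventricular RNA were made from 20 rats. The table deposited by the authors holds estimated counts for each Ensembl gene, obtained by assigning reads to the rat transcriptome mRatBN7.2 and left unscaled between libraries. The submitters' processing notes list kallisto, edgeR and DESeq2. Which pipeline made the table, its version and whether counting used strand are not given in the sources used here. Rounding gave whole counts, with 0 in all libraries for 3978 IDs. Library totals of 7220469 to 26664479 limit the precision of low counts most in the smallest libraries.

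Tests used edgeR 4.0.16 under R 4.3.3. The steps were filterByExpr by group (14293 genes kept), TMM, and a robust quasi-likelihood fit of 4 group means to all 20 libraries. Calls needed a Benjamini-Hochberg adjusted p under 0.05 over all genes and a log2 fold change beyond 0.27 either way (adjusted p alone for the interaction). Log2 CPM had a prior count of 2. Correlations used group-centred log2 CPM and 100000 permutations within groups. Besides the members, the rule for named genes took, without gene names, only the 2 IDs with the highest and the 2 with the lowest r to the average of the members. Alternatives were DESeq2 1.42.0, limma 3.58.1, the likelihood ratio test of edgeR, other scaling, no filter, fits of 10 libraries, a replicate block, thinned counts and left-out libraries. Ratios of genes, lists of other lengths and the search for TTTAAA were added after the data were seen. The code was tested on simulated counts. In 40 pairs of libraries of the same group the chi-square per gene was at least 5.98, so none was treated as a duplicate.

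The members and lists were chosen with earlier results of these data known. Among 47357 genes in the RefSeq table, 0 carry an identifier from Ensembl, and no ID was matched to a name in this way. The names of the 4 genes are those given with their IDs. For the same reason Vegfb, markers of cell types and wider lists of cell cycle genes were not analysed here, and the labels of genotype and tissue were not checked against marker genes. Promoter windows were matched by symbol, 4 of 4. Figures were drawn with matplotlib 3.10.9 in Python 3.11.15.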

Additional observations from a re-analysis of the deposited data

Results flagged for a closer look

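Ccnb1 in Vegfb KO control replicate 5 was 1.33 CPM, where the other 4 rats of the group lay at 1.03 CPM or less. The gap to its nearest neighbour was larger, as a share of the range of the group, than the 95% critical value of 0.71 for 5 samples. The SD of the group was 0.654 of the SD that counting alone gives, from 17 to 30 counts per library. This was the only such value among 16 groups tested (4 genes in 4 groups), and chance flags about 1 in 20 groups. The same rat had the highest Mki67, Top2a and Cdk1 of its group, at 10.2, 5.04 and 1.90 CPM. Without it the log2 fold change with diabetes in Vegfb KO hearts was -0.87 for Mki67, -1.27 for Top2a, -1.30 for Cdk1 and -0.12 for Ccnb1, and that of Ccnb1 was not called with or without it.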

How the results depend on the processing

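The falls of Mki67, Top2a and Cdk1 with diabetes kept their direction and call in 96 of 96 values under other tools, scaling, filters and samples and in 180 of 180 with 1 library left out. Over both kinds of alternative the log2 fold change ran from -1.44 to -1.16, from -1.75 to -1.42 and from -2.01 to -1.60 in WT, and from -1.14 to -0.87, from -1.61 to -1.27 and from -1.57 to -1.17 in Vegfb KO hearts.

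With limma and quality weights Ccnb1 was called in WT (-1.20) and in the mean of genotypes (-0.75), and the difference between Vegfb KO and WT diabetic hearts turned to 0.032 for Mki67 and 0.013 for Top2a. Thinned counts turned it to 0.18 for Mki67 and -0.13 for Ccnb1 and the interaction of Top2a to -0.14, which was -0.0047 without both libraries with a high share of 1 ID. With 1 library left out, the difference ranged from -0.17 to 0.076 for Mki67, -0.27 to 0.065 for Top2a, -0.33 to 0.056 for Cdk1 and -0.20 to 0.33 for Ccnb1, and the interaction of Top2a from -0.064 to 0.27. None of the turned values was called, and the cause was not tested. DESeq2 gave no adjusted p for Cdk1 and Ccnb1 here.

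Without subtraction of group means, r was 0.88 for Mki67 with Cdk1 and 0.54, 0.52 and 0.51 for Ccnb1 with Mki67, Top2a and Cdk1, values that hold the difference between control and diabetic clusters. Top2a with Cdk1 lost its call with scaling by total count (0.42) or without both libraries (0.49), and ranged from 0.49 to 0.67 with 1 library left out. Mki67 with Cdk1 ranged from 0.34 to 0.60, called only without WT diabetic replicate 5, and Cdk1 with Ccnb1 from -0.10 to 0.29, below 0 only without WT diabetic replicate 1.

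The alternatives for ratios were chosen after seeing the data. Mki67 to Top2a was called in all, from 0.33 to 0.39 with 1 library left out. The ranges that follow are also with 1 library left out. Mki67 to Cdk1 lost its call with 1 added to each count (0.44), was called at 0.61 without both libraries and ranged from 0.33 to 0.57. Top2a to Ccnb1 lost its call without both libraries (-0.75) and ranged from -0.95 to -0.64, and Cdk1 to Ccnb1 ranged from -1.09 to -0.71. Mki67 to Ccnb1 ranged from -0.61 to -0.29, called only without WT diabetic replicate 1.

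With the replicate block Mki67 was at -1.27 in WT and -1.02 in Vegfb KO hearts, and no call of the 4 genes changed. Whether equal numbers mark paired rats is not given in the labels and was not tested. Between libraries of different groups, with group means subtracted, the median r was 0.037 for the same number and -0.017 for different numbers. Of 30 pairs with the same number, 10 correlated above 0.1, and 5 of 20 libraries correlated best with their own number. These values carry no test and cannot decide the question. The block moved the genes called from 1876 to 1785 in WT.

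Over all genes, total count scaling called 687 in WT, 276 in Vegfb KO and 1427 in the mean, against 1876, 1121 and 2317, with 38.8% of Vegfb KO calls lower against 53.7%. Limma called 2844 in WT, and 643 were called in Vegfb KO without its diabetic replicate 3. Between diabetic genotypes 6 genes were called, against 68 with DESeq2, 38 with the likelihood ratio test, 30 with limma, 3 with total count, thinned counts or 10 libraries, and 2 to 181 with 1 library left out, highest without WT diabetic replicate 3.

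Depth limits Ccnb1 and Cdk1 most, since a library held as few as 3 counts of each.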
